A study of Mus musculus with 20 samples.

Results

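The mitochondrial genome of the mouse encodes 13 protein coding genes, of which 10 mRNAs are described here, chosen by gene name: mt-Nd1, mt-Nd2, mt-Nd4, mt-Nd5 and mt-Nd6 of complex I, mt-Cytb of complex III, mt-Co1, mt-Co2 and mt-Co3 of complex IV, and mt-Atp6 of the ATP synthase. Of the 10, 7 had counts among the 14924 genes measured by RNA-Seq (total RNA) and POL-Seq (polysomal RNA), and 9 had counts among the 9621 genes measured by 3′ end sequencing. mt-Co2, mt-Co3 and mt-Atp6 were not analysed in total and polysomal RNA, and mt-Nd5 was not analysed at the 3′ end, so each of the 10 was measured by at least 1 method. The samples are NSC-34 cells that carry the tetracycline repressor (Trex); the line is a mouse hybrid of neuroblastoma and spinal cord cells with motor neuron features. HuD cells also carry an inducible tagged human HuD (ELAVL4), a neuronal RNA-binding protein, and were given 2 µg/ml tetracycline for 48 h. Control cells are Trex NSC-34 cells without that transgene, and whether they received tetracycline for these libraries is not stated in the sources used here. There were 2 total and 2 polysomal libraries of each cell line and 3 libraries of each at the 3′ end. HuD-bound RNA was mapped by CRAC, an ultraviolet cross-linking method, with 3 HuD and 3 control libraries. For these the study's methods give 10 µg/ml tetracycline for 24 h in both lines. Its results section instead gives 2 µg/ml doxycycline, a tetracycline, for 48 h. The study's methods call the replicates of total, polysomal and 3′ end RNA biological, without saying what was repeated.

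Mitochondrial mRNAs are made inside the organelle from long transcripts of both DNA strands, cut mostly at the tRNAs that lie between the genes, and polyadenylated there. All but mt-Nd6 are read from the same strand. They encode hydrophobic core subunits of the respiratory chain, which are assembled with nuclear-encoded subunits, and they are translated by mitochondrial ribosomes within the organelle, whereas polysome profiling is built around cytosolic ribosomes. The study's methods clear the lysate of debris by centrifugation before the gradient, and describe total and polysomal RNA as extracted from sucrose fractions. How much of the mitochondria remained is not stated, so levels of these mRNAs need not stand for whole cells. Cycloheximide, added before lysis, blocks cytosolic but not mitochondrial ribosomes, and tetracyclines bind bacterial-type ribosomes, to which the mitochondrial ones are related. Where a value differs between HuD and control cells, HuD and tetracycline cannot be told apart unless the controls received the drug too.

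Several of these mRNAs end without a complete stop codon in the DNA, and a tail of adenosines completes it. The annotated 3′ ends of mt-Nd4, mt-Cytb and mt-Co3 are shown because all 3 end in a lone T, and those of mt-Nd5 and mt-Nd6 because the genes overlap by 14 nt on opposite strands. Capitals mark the bases that belong to the stop codon (GENCODE vM21 transcripts, GRCm38, 21 bases each, 5′ to 3′ on the gene's own strand).
mt-Nd4 (chrM:11524-11544, plus): taattacaggcctgacaataT
mt-Cytb (chrM:15268-15288, plus): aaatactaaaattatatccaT
mt-Co3 (chrM:9370-9390, plus): ccatttattgatgaggatctT
mt-Nd5 (chrM:13545-13565, plus): tactcaattaatctcgagTAA
mt-Nd6 (chrM:13552-13572, minus): atcgagattactcgagatTAA

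Along chrM, in GRCm38 coordinates, mt-Nd1 spans 2751 to 3707, mt-Nd2 3914 to 4951, mt-Co1 5328 to 6872, mt-Co2 7013 to 7696 and mt-Atp6 7927 to 8607. They are followed by mt-Co3 at 8607 to 9390, mt-Nd4 at 10167 to 11544, mt-Nd5 at 11742 to 13565, mt-Nd6 at 13552 to 14070 on the minus strand, and mt-Cytb at 14145 to 15288. Each is a single exon that is coding from end to end in this annotation. mt-Nd6 differs from the others in base composition. Its RNA is 43.7% T and 28.1% G and holds TTT 88.6 times per kilobase, counting overlapping matches, against 27.4% to 31.2% T, 7.996% to 16.1% G and 13.5 to 33.7 TTT per kilobase in the other 9. T-rich stretches are what the RNA-binding domains of the Hu proteins are known to prefer.

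Copies of mitochondrial DNA in the nuclear genome can limit what is counted for some of these mRNAs. As a measure, every 50 nt stretch of each mRNA was looked up, on both strands, in the annotated transcripts of all other genes. The 3 mRNAs not analysed in total and polysomal RNA shared nearly all stretches: 100% for mt-Co2, 99.9% for mt-Co3 and 99.5% for mt-Atp6, with Gm28661, Gm28437 and Gm10925 holding the largest parts. Outside the 10, mt-Nd3, mt-Nd4l and mt-Atp8 were not measured there either, and shared 98.0%, 98.8% and 0%. Why these mRNAs lack counts was not tested. The shared part was 62.2% in mt-Nd4 (Gm28439) and 51.1% in mt-Co1 (Gm13340 and Gm29216), and 8.19% in mt-Nd2 and 7.61% in mt-Nd5. mt-Nd1, mt-Cytb and mt-Nd6 shared none. Since STAR counts only reads that map to 1 place (reads on other genes are left out), the levels of mt-Nd4 and mt-Co1 are uncertain. Nuclear copies not annotated as transcripts were not counted here.

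Total counts were 21296012 to 36284728 per library in total and polysomal RNA and about 12986900 to 15751000 at the 3′ end. Elavl4, which takes up reads of the HuD transgene, had 78.3 and 97.4 CPM (each gene's share of the library's counts, scaled to a common library size with TMM factors) in total RNA of control cells and 237 and 212 in HuD cells, with 90.3 and 118 against 243 and 225 in polysomal RNA, so HuD cells were higher in all libraries. Its log2 fold change was 1.35 ± 0.15 (SE) in total RNA, with an edgeR adjusted p of 0.0866. At the 3′ end it was lower in HuD cells (46.1 ± 12.8 against 64.9 ± 22.9 CPM, SD, n = 3), but counts at mouse polyadenylation sites need not include a transgene, so they check nothing. Of 12 motor neuron markers 11 were measured and 10 exceeded 1 CPM in total RNA of control cells, led by Prph at 1203 CPM. Chat, a defining enzyme of cholinergic neurons, was at or below 1 CPM, and Mnx1 was not among the genes measured. The markers' summed level was 2317 to 2496 CPM over the 8 libraries. Of 7 glial markers 3 were measured, with a sum of 14.3 to 18.8 CPM, and of 4 fibroblast markers Pdgfra was measured, at 21.2 to 28.1 CPM. The library of total RNA labelled HuD replicate 1 stood apart for RNAs of the minus strand of mitochondrial DNA. It did so too for several RNAs that lack a poly(A) tail, chosen after its values were seen. It is described with mt-Nd6, whose differences that involve this library are given with and without it.

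The 7 measured mRNAs took 3.19% and 2.90% of all counts in total RNA of control cells and 2.84% and 3.25% in HuD cells. In polysomal RNA they took 2.45% and 1.51% in control cells and 1.81% and 1.63% in HuD cells. All 4 polysomal libraries lay below all 4 total libraries. The group means were 3.05% ± 0.20 and 3.04% ± 0.29 (SD, n = 2) in total RNA of control and HuD cells, and 1.98% ± 0.66 and 1.72% ± 0.12 in polysomal RNA. At this depth the 95% Wilson interval of a single library, such as 3.18% to 3.19% for total control replicate 1, is far narrower than the spread between replicates, and it covers counting error only. Polysomal control replicate 1 held a larger share than the other 3 polysomal libraries.

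Levels per length spread widely between these genes. In total RNA of control cells mt-Cytb, the cytochrome b of complex III, stood at 11766 ± 819 CPM per kilobase (SD, n = 2), above mt-Co1, the catalytic subunit of complex IV, at 4254 ± 129. The complex I subunits followed in the order mt-Nd1 at 3522 ± 139, mt-Nd2 at 2180 ± 21.3, mt-Nd4 at 1889 ± 244 and mt-Nd5 at 1343 ± 24.8, and mt-Nd6 stood at 95.6 ± 51.0. No neighbours in that order overlapped between replicates. The levels divide by full gene length, although 62.2% of the stretches of mt-Nd4 and 51.1% of those of mt-Co1 were shared with other genes. The places of mt-Nd4 and mt-Co1 in the order are therefore uncertain. In HuD cells the order in total RNA was the same, but mt-Co1 and mt-Nd1 overlapped (3923 ± 293 and 3699 ± 772 CPM per kilobase). In polysomal RNA mt-Cytb again stood first (7201 ± 2487 in control and 5658 ± 281 in HuD cells) and mt-Nd6 last, while mt-Co1 overlapped mt-Nd1 in both cell lines, mt-Nd4 overlapped mt-Nd5 in both, and mt-Nd2 overlapped mt-Nd4 in control cells.

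For comparison, the nuclear-encoded subunits had median levels in total RNA of control cells of 111 CPM per kilobase of annotated exons over 36 genes of complex I, 249 over 9 of complex III, 591 over 11 of complex IV and 193 over 16 of the ATP synthase. The highest of them, Atp5b, the beta subunit of the ATP synthase, reached 869 CPM per kilobase, below 6 of the 7 mitochondrial mRNAs. mt-Nd6 was below the medians of all 4 groups. Exon length joins all annotated transcripts of a gene, which lowers the value of genes with unused exons.

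**Figure D1:**
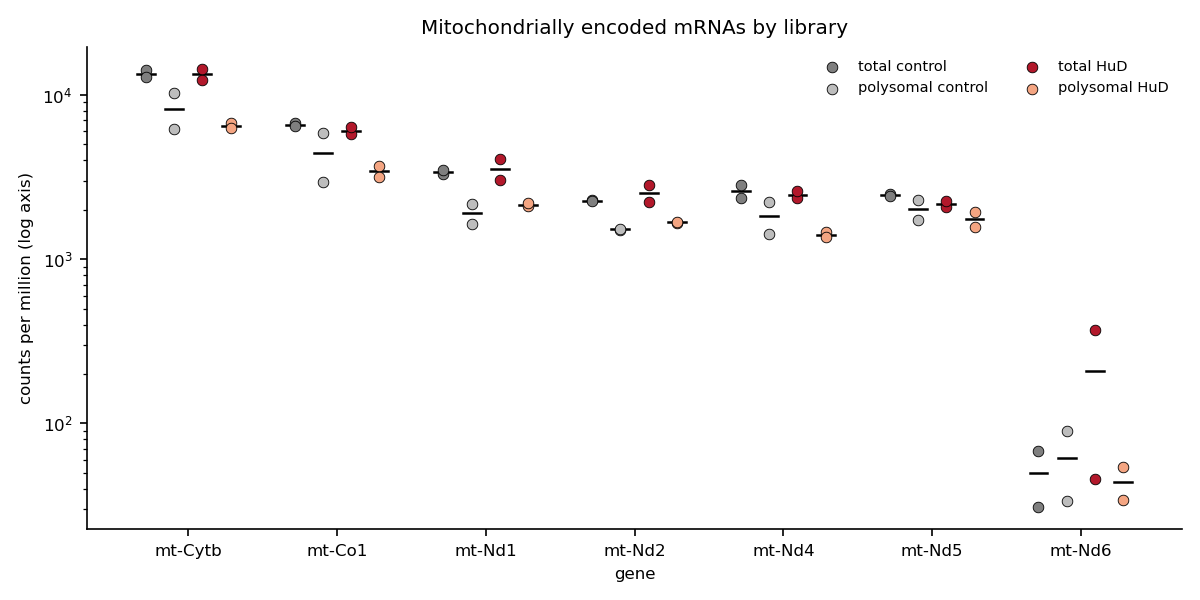
CPM (log axis) of the 7 measured mitochondrial mRNAs in each library, with 2 points per group and a bar at their mean, for total and polysomal RNA of control and HuD cells. The 6 mRNAs from mt-Cytb to mt-Nd5 lie lower in polysomal than in total RNA, and mt-Nd6 shows 1 high library at 369 CPM in total RNA of HuD cells.

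Polysomal against total RNA asks which RNAs travel with polysomes in the gradient. All 6 measured mRNAs of the plus strand were lower in both polysomal libraries than in both total libraries, in control cells and again in HuD cells, and mt-Nd6 overlapped in both. Among all 14906 genes tested, 20.1% had both polysomal libraries below both total libraries in control cells and 24.5% in HuD cells. None of the 7 passed an adjusted p of 0.05 in the edgeR quasi-likelihood test with Benjamini-Hochberg adjustment, in either cell line, beside 0.174% (26 genes) of all genes in control cells and 0.537% (80 genes) in HuD cells. At an unadjusted p under 0.05, 4 of 7 were lower in control cells (6.25% of all genes were) and 6 of 7 in HuD cells (7.59%). The 4 in control cells were mt-Nd1, mt-Nd2, mt-Nd4 and mt-Cytb, and the 6 in HuD cells were these, mt-Co1 and mt-Nd6, not mt-Nd5. That of mt-Nd6 rested on total HuD replicate 1, without which its log2 fold change was -0.046. By DESeq2, 3 and 4 of the 7 were called lower, beside 0.449% and 1.71% of all genes called in either direction. Where HuD and control cells are compared in bulk, fewer cells of a type and less RNA per cell cannot be told apart.

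mt-Cytb had 14123 and 12798 CPM in total RNA of control cells and 10251 and 6226 in polysomal RNA. In HuD cells it had 12234 and 14386 in total and 6700 and 6246 in polysomal RNA. The polysomal libraries of HuD cells were close together, and those of control cells were not. The log2 fold change of polysomal against total RNA was -0.71 ± 0.22 (SE, adjusted p = 0.447, edgeR) in control cells and -1.04 ± 0.22 (adjusted p = 0.0933) in HuD cells.

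mt-Co1 had 6714 and 6431 CPM in total and 5848 and 2945 in polysomal RNA of control cells. Its values in HuD cells were 5741 and 6381 in total and 3709 and 3156 in polysomal RNA. Polysomal control replicate 1 lay just below the control total libraries, and replicate 2 near the polysomal HuD libraries. The log2 fold changes were -0.58 ± 0.26 and -0.82 ± 0.26, with edgeR adjusted p of 0.465 and 0.250.

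mt-Nd1, a membrane subunit of complex I next to the ubiquinone site, had 3276 and 3464 CPM in total and 2164 and 1641 in polysomal RNA of control cells. In HuD cells it had 3017 and 4062 in total and 2094 and 2188 in polysomal RNA. The fractions did not overlap in either cell line, but the total libraries of HuD cells lay farther apart than the gap between the fractions. The log2 fold changes were -0.82 ± 0.17 (edgeR adjusted p = 0.208) and -0.73 ± 0.17 (adjusted p = 0.134).

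mt-Nd2 had the closest polysomal replicates of the 7. Its values were 2278 and 2247 CPM in total and 1507 and 1524 in polysomal RNA of control cells, and 2241 and 2810 against 1671 and 1673 in HuD cells. The log2 fold changes were -0.58 ± 0.12 and -0.60 ± 0.12, with edgeR adjusted p of 0.214 and 0.0891. mt-Nd2, mt-Nd4 and mt-Nd5 encode the membrane subunits of complex I related to ion transporters, which move protons.

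mt-Nd4 had 2841 and 2366 CPM in total and 2218 and 1421 in polysomal RNA of control cells, and 2344 and 2589 against 1455 and 1364 in HuD cells. Its log2 fold changes were -0.52 ± 0.19 and -0.81 ± 0.19 (edgeR adjusted p = 0.462 and 0.137). mt-Nd5 showed the smallest differences of the 6, from 2482 and 2418 CPM in total to 2286 and 1725 in polysomal RNA of control cells, and from 2080 and 2273 to 1942 and 1559 in HuD cells. They amount to -0.29 ± 0.16 and -0.31 ± 0.16 on the log2 scale, and neither passed an unadjusted p of 0.05.

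Both polysomal control libraries weighed on these values. Without polysomal control replicate 1, 6 of the 7 mRNAs were called lower in control cells, all but mt-Nd6, with log2 fold changes of -0.51 to -1.16, beside 14.4% of all genes called in that fit. Without polysomal control replicate 2, none was called in control cells, and the log2 fold changes there were -0.11 for mt-Nd5, -0.18 for mt-Co1, -0.24 for mt-Nd4, -0.40 for mt-Cytb, -0.59 for mt-Nd2 and -0.65 for mt-Nd1. Without replicate 1 or without polysomal control replicate 2, 5 of the 7 were called lower in HuD cells, beside 2.56% and 2.75% of all genes, although neither library is of HuD cells. With only the 4 HuD libraries, 5 were called as well (2.39% of all genes), and with only the 4 control libraries none.

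Both mitochondrial ribosomal RNAs, also of the plus strand, were lower in each polysomal library than in both total libraries of the same cells. Of all genes, 20.1% were so in control cells and 24.5% in HuD cells. mt-Rnr1, the small ribosomal RNA, had 381 and 299 CPM in total and 208 and 84.3 in polysomal RNA of control cells, and 500 and 347 against 63.5 and 79.7 in HuD cells. Its log2 fold change of -2.56 ± 0.37 in HuD cells passed the test (edgeR adjusted p = 0.0225), while that of -1.21 ± 0.35 in control cells did not (adjusted p = 0.416). mt-Rnr2, the large ribosomal RNA, gave -0.67 ± 0.26 and -1.39 ± 0.26, with adjusted p of 0.462 and 0.0694. Of the 8 mitochondrial tRNAs measured, mt-Tw, between mt-Nd2 and mt-Co1, passed in HuD cells at -1.06 ± 0.16 (adjusted p = 0.0265). mt-Ti, the other way, gave 0.96 ± 0.41 in HuD cells and -0.90 ± 0.48 in control cells (adjusted p = 0.381 and 0.486). The calls of mt-Rnr1 and mt-Tw did not hold in every fit that left out 1 library. mt-Rnr1 was highest in total HuD replicate 1, the library described with mt-Nd6. Libraries built on poly(A) capture ribosomal RNAs and tRNAs poorly.

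The nuclear-encoded partners, translated in the cytosol, had polysomal to total differences around 0. The median log2 fold change of the 7 mitochondrial mRNAs was -0.58 in control and -0.81 in HuD cells, beside 0.01 over all genes in both. For nuclear complex I it was -0.04 and 0.06 over 36 genes, for complex III -0.02 and 0.12 over 9, for complex IV -0.06 and 0.10 over 11 and for the ATP synthase -0.02 and 0.09 over 16. None of these 72 genes was called in either cell line. The 76 mitochondrial ribosomal protein mRNAs, also translated in the cytosol, had medians of -0.02 and 0.01, with 0 called. The 22 measured genes of mitochondrial RNA processing and stability, such as Lrpprc and Slirp, which bind and stabilise these mRNAs, had medians of 0.01 and -0.02, and the 15 measured of transcription and DNA maintenance, such as Polrmt and Tfam, -0.03 and -0.04. The 15 mitochondrial translation factors had -0.04 and -0.06. None of these genes was called. Neat1, a nuclear-retained long noncoding RNA, was also lower in polysomal RNA of HuD cells (-0.91 ± 0.15, edgeR adjusted p = 0.0402). That call, too, did not hold in every fit that left out 1 library, and Neat1 was highest in total HuD replicate 1. So were Malat1, Meg3 and Kcnq1ot1, the other nuclear-retained RNAs listed. In control cells 2 of these 4 were lower and 2 higher in polysomal RNA (median 0.06). In HuD cells all 4 were lower (median -1.05), and only Neat1 was called.

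**Figure D2:**
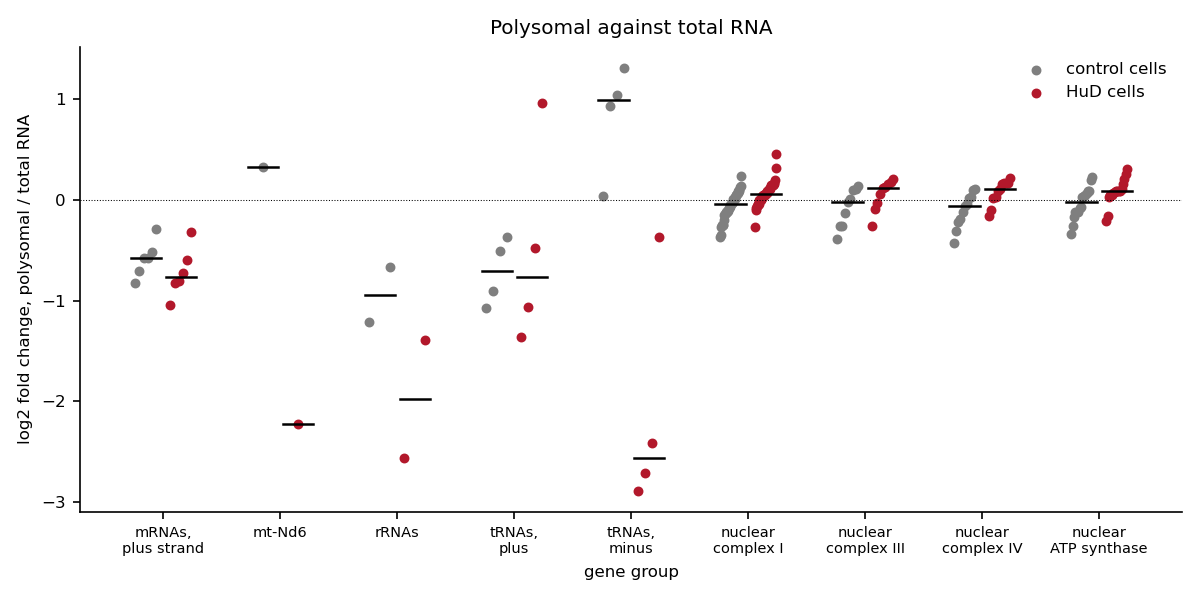
Log2 fold change of polysomal against total RNA for each gene (points) and the median (bars) of each group, in control and HuD cells. The 6 plus-strand mRNAs lie between -1.04 and -0.29 in both cell lines, and the nuclear-encoded subunits of the same complexes lie around 0.

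mt-Nd6, the membrane subunit of complex I read from the other strand, overlapped between the fractions. It had 68.4 and 30.9 CPM in total RNA of control cells, 369 and 45.6 in total RNA of HuD cells, 89.7 and 33.8 in polysomal RNA of control cells, and 54.0 and 34.3 in polysomal RNA of HuD cells. A single library, total HuD replicate 1, lay above the other 7, and the groups overlapped in all 4 comparisons. In every group replicate 1 also lay above replicate 2. The share of all genes with that pattern was not taken. The log2 fold change of HuD against control was 2.06 ± 0.82 in total RNA (unadjusted p = 0.0316, edgeR adjusted p over 14906 genes = 1.00 when rounded) and -0.12 ± 0.58 without that library. The fit without that library set HuD replicate 2 against both control replicates. Within each replicate number mt-Nd6 was higher in HuD cells, at 369 against 68.4 and at 45.6 against 30.9 CPM. Whether same-numbered libraries pair here could not be settled. Polysomal against total RNA gave 0.33 ± 0.80 in control and -2.23 ± 0.82 in HuD cells (edgeR adjusted p = 0.885 and 0.314). Without total HuD replicate 1 the value in HuD cells was -0.046 ± 0.58 (adjusted p = 0.994).

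Of all counts on the 7 mRNAs, mt-Nd6 took 1.32% in total HuD replicate 1 (95% Wilson interval 1.29% to 1.34%) and 0.104% to 0.368% in the other 7 libraries. The same library stood apart for the tRNAs of the minus strand, mt-Ta, mt-Te, mt-Tp and mt-Tq. They held 51.7% of the counts on the 8 measured tRNAs there, and 8.34% to 35.9% in the others. Replicate 1 was above replicate 2 in every group: 51.7% and 12.1% in total HuD, and 19.0% and 8.34% in total control. Polysomal control gave 35.9% and 19.8%, and polysomal HuD 15.3% and 13.3%. For instance, mt-Tp, separated from mt-Cytb by mt-Tt, had 7.48 CPM in total HuD replicate 1 and 1.41 in replicate 2. The plus-strand mRNAs of total HuD replicate 1 were not raised: mt-Cytb, mt-Co1, mt-Nd1, mt-Nd2, mt-Nd4 and mt-Nd5 were all lower there than in replicate 2.

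Several RNAs made without a poly(A) tail were also highest in total HuD replicate 1. Of 10 such RNAs listed after the values of that library were seen, 6 had counts, and 5 of them were highest there. That choice favours such a count, and the share of all genes highest there was not taken. The summed level of the 6, on library totals, was 722 CPM there and 97.3 in the other library of its group. In replicates 1 and 2 it was 154 and 76.7 in total control, 141 and 87.2 in polysomal control, and 84.0 and 91.4 in polysomal HuD. Without Malat1 it was 127 in total HuD replicate 1 and 0.597 to 23.3 in the others. Replicate 1 was then above replicate 2 in every group: 127 and 3.05 in total HuD, and 23.3 and 3.66 in total control. Polysomal control gave 5.90 and 1.41, and polysomal HuD 1.82 and 0.597. Malat1, whose 3′ end is made by cleavage at a tRNA-like structure, had 587 CPM there and 74.9 to 134 elsewhere. Rn7sk, the 7SK RNA, stood at 97.4 on the same scale against 0.188 to 19.1, and Rpph1, the RNA of RNase P, at 17.5 against 0.0628 to 1.60. Terc, the telomerase RNA, was the exception, at 0.310 against up to 0.747. The 10 measured histone genes summed to 35.8 on that scale there, and 18.7 to 31.3 elsewhere. In human cells the ND6 mRNA is known to carry little or no poly(A) tail. The part of RNA without tails in the mt-Nd6 values was not tested.

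**Figure D3:**
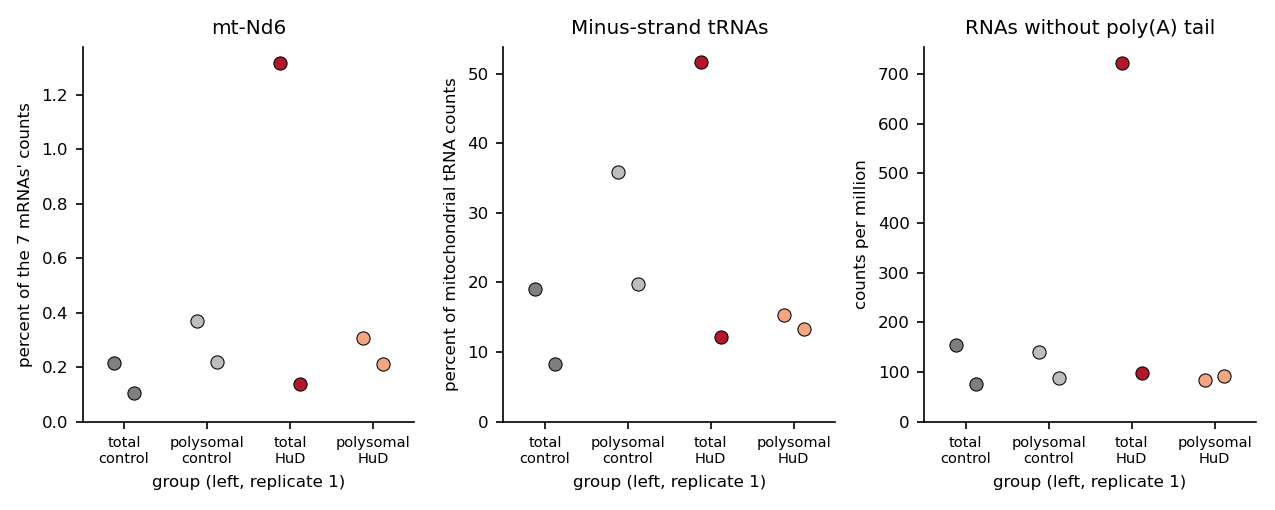
Share of mt-Nd6 among the counts of the 7 mRNAs (left), share of the minus-strand tRNAs among the mitochondrial tRNA counts (middle) and summed level of 6 RNAs without poly(A) tail (right), with 1 point per library. Total HuD replicate 1 is the highest point in each panel, at 1.32%, 51.7% and 722 CPM.

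HuD against control cells asks whether the inducible HuD changed these mRNAs. In total RNA none of the 7 passed an adjusted p of 0.05, beside 0% of the 14906 genes tested by edgeR. At an unadjusted p under 0.05, mt-Nd6 was higher, as were 1.78% of all genes, and this rested on the library described above. DESeq2 called 0 of the 7 and 1 of all genes. The log2 fold changes of the 6 plus-strand mRNAs lay between -0.17 and 0.16. mt-Nd2 gave 0.16 ± 0.12, mt-Nd1 0.07 ± 0.17, mt-Cytb -0.02 ± 0.22, mt-Nd4 -0.08 ± 0.19, mt-Co1 -0.12 ± 0.26 and mt-Nd5 -0.17 ± 0.16. mt-Co1 and mt-Nd5 were lower in both HuD than in both control libraries, as were 16.7% of all genes, and the direction of mt-Cytb depended on the scaling, with 0.01 when only library totals were used.

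In polysomal RNA, too, 0 of the 7 were called, beside 0% of all genes, and 0 passed an unadjusted p of 0.05, beside 4.17%. DESeq2 also called 0 of the 7. The log2 fold changes were 0.17 ± 0.17 for mt-Nd1, 0.14 ± 0.12 for mt-Nd2, -0.20 ± 0.16 for mt-Nd5, -0.35 ± 0.22 for mt-Cytb, -0.36 ± 0.26 for mt-Co1, -0.37 ± 0.19 for mt-Nd4 and -0.49 ± 0.80 for mt-Nd6. mt-Nd2 was higher in both HuD than in both control libraries (14.1% of all genes were). The other 6 overlapped between the groups, and the lower values rested on polysomal control replicate 1: without it mt-Co1 gave 0.22, mt-Cytb 0.06, mt-Nd5 0.02 and mt-Nd6 0.39.

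The polysomal to total ratio, taken as the interaction of fraction and HuD over all 8 libraries, passed the test of a difference between HuD and control cells for none of the 7 (0 called by edgeR and by DESeq2, beside 0% of all genes by both). At an unadjusted p under 0.05 none was called either, beside 0.979% of all genes. The estimates were -0.33 ± 0.31 for mt-Cytb, -0.29 ± 0.27 for mt-Nd4, -0.24 ± 0.37 for mt-Co1, -0.03 ± 0.22 for mt-Nd5, -0.02 ± 0.17 for mt-Nd2 and 0.10 ± 0.24 for mt-Nd1. mt-Nd6 gave -2.56 ± 1.14 (unadjusted p = 0.0502), and -0.37 ± 0.74 (unadjusted p = 0.626) without total HuD replicate 1. The nuclear-encoded subunits had medians of 0.14 for complex I, 0.13 for complex III, 0.15 for complex IV and 0.10 for the ATP synthase, beside -0.01 over all genes, and none of them was called.

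Within the pool of the 7 mRNAs, mt-Cytb took 38.0% to 44.4% of their counts over the 8 libraries, mt-Co1 19.0% to 24.0%, mt-Nd1 8.88% to 13.5%, mt-Nd2 6.18% to 10.3%, mt-Nd4 7.95% to 9.16% and mt-Nd5 6.98% to 11.1%. mt-Cytb took 43.0% to 44.4% in the 4 total libraries and 38.0% to 42.1% in the 4 polysomal ones, while mt-Nd5 took 6.98% to 8.13% in total and 9.38% to 11.1% in polysomal RNA. Total and polysomal libraries thus did not overlap for either share, while those of mt-Co1, mt-Nd1, mt-Nd2, mt-Nd4 and mt-Nd6 overlapped. The shares of a library add up to the whole, so they are not independent.

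The genes with the most similar profile over the 8 libraries, by Pearson's r with the mean log2 CPM of the 7, were Rnf167 (r = 0.986), Cry2 (0.981), 2900076A07Rik (0.979), Rltpr (0.978) and Acot8 (0.976), among 9693 genes of other chromosomes with a mean of at least 10 CPM. In total, 179 of the 9693 exceeded 0.9. The 8 points share the fraction, depth and scaling of their library, so these values are a description. Rnf167 itself ranged from 68.0 to 86.0 CPM.

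At the 3′ end, mt-Co3, mt-Cytb, mt-Atp6, mt-Nd1, mt-Nd4 and mt-Nd2 gave 1012 to 10116 CPM, and mt-Co2, mt-Nd6 and mt-Co1 gave 1.963 to 32.2. None of the 9 passed the edgeR test of HuD against control cells, beside 0.052% (5 genes) of 9621 tested, and 0 passed an unadjusted p of 0.05, beside 5.87%. DESeq2 called 0 of the 9. The 9 together took 2.93%, 2.54% and 3.10% of all 3′ end counts in control and 2.71%, 2.53% and 2.99% in HuD cells. All 9 had overlapping groups.

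These libraries were taken to pair by replicate number, from the data and not from the labels. HuD was lower in all 3 pairs for 3 of the 9, mt-Cytb, mt-Nd2 and mt-Co2, beside 20.4% of all genes, and higher in all 3 for mt-Co3, beside 20.1%. With the number as a block, 217 genes (2.26%) and again 0 of the 9 were called by edgeR. In that fit mt-Co2 gave -0.35 ± 0.11 (edgeR adjusted p = 0.119), mt-Nd2 -0.15 ± 0.066 (adjusted p = 0.246), mt-Cytb -0.13 ± 0.064 (adjusted p = 0.304) and mt-Co3 0.02 ± 0.060 (adjusted p = 0.887).

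mt-Co3, a core subunit of complex IV, had 8273, 9483 and 10062 CPM in control and 8610, 9488 and 10116 in HuD cells (log2 fold change 0.02 ± 0.12). mt-Atp6, the subunit a of the proton channel of ATP synthase, had 5057, 3563 and 5620 against 5034, 3537 and 5647 (-0.0021 ± 0.21). Each control value of both mRNAs had a HuD value of the same replicate number within a few percent of it. mt-Cytb had 7441, 6914 and 7829 in control and 6319, 6558 and 7414 in HuD cells, a change of -0.13 ± 0.11.

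mt-Nd1 stood at 3130 ± 190 CPM (SD, n = 3) in control and 3105 ± 304 in HuD cells, mt-Nd4 at 2388 ± 299 and 2103 ± 458, and mt-Nd2 at 1486 ± 281 and 1345 ± 293. Their log2 fold changes were -0.01 ± 0.12, -0.18 ± 0.17 and -0.14 ± 0.19. mt-Nd6 had 15.7, 32.2 and 19.5 CPM in control and 29.9, 27.2 and 28.2 in HuD cells. The HuD values lay within the range of the control values, and the log2 fold change was 0.34 ± 0.24 (edgeR adjusted p = 0.952). mt-Co2, the subunit of complex IV that receives electrons from cytochrome c, had 28.1, 24.3 and 31.0 against 25.0, 17.2 and 23.6 (-0.34 ± 0.18, adjusted p = 0.891).

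mt-Co1, the mRNA with the second highest level per length in total RNA of control cells, was the lowest of the 9 at the 3′ end, with 59, 27 and 59 counts in control and 30, 48 and 48 in HuD cells. The nuclear copy Gm29216 had the same counts as mt-Co1 in all 6 libraries, so both rows may hold the same reads. Of the 51 stretches of 50 nt in the last 100 nt, mt-Co1 and mt-Co2 shared 51 with other genes, mt-Co3 50, mt-Atp6 48 and mt-Nd2 3. mt-Nd1, mt-Nd4, mt-Cytb and mt-Nd6 shared 0. Both mRNAs with no stretch of their own up to the last base were at 1.963 to 31.0 CPM. mt-Co3 and mt-Atp6, which keep 1 and 3 such stretches, were at 3537 to 10116. mt-Nd6, which shared 0, was nevertheless at 15.7 to 32.2 CPM. Outside the 10, mt-Nd3 and mt-Nd4l both shared 48, and were at 1483 to 2417 and at 2.81 to 6.22 CPM. mt-Atp8 shared 0 and was at 4.67 to 11.4 CPM. Whether sharing sets these levels was not tested. The copies Gm10925 of mt-Atp6 and Gm28437 of mt-Co3 had 493 to 804 and 355 to 439 CPM.

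**Figure D4:**
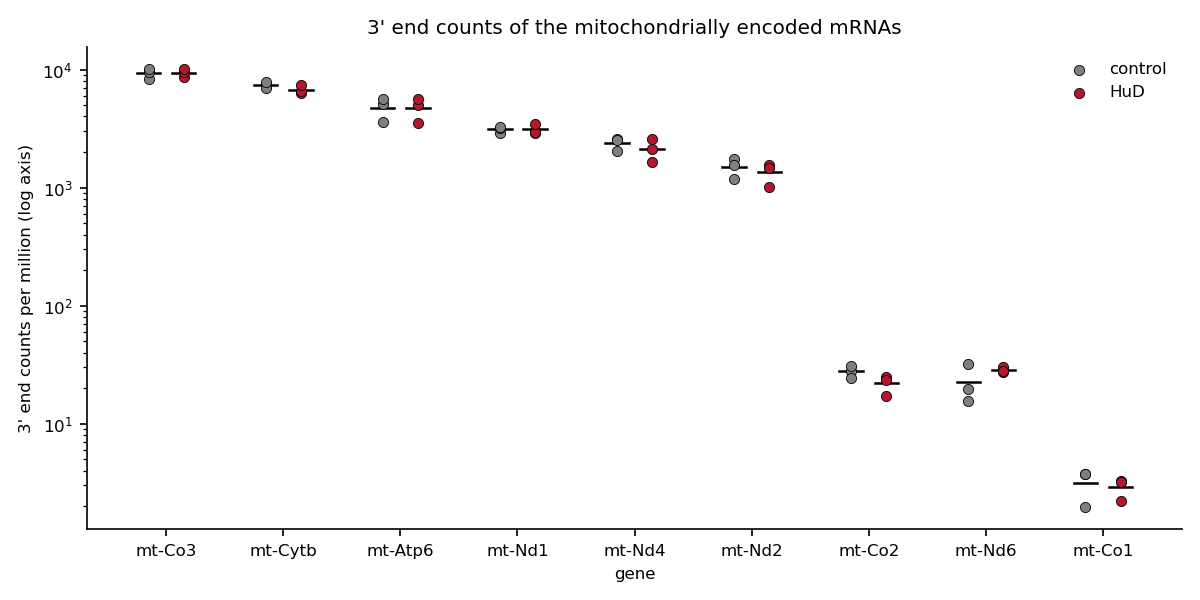
3′ end CPM (log axis) of the 9 measured mitochondrial mRNAs, with 3 points per group and a bar at their mean, for control and HuD cells. The groups overlap for every mRNA, and mt-Co2, mt-Nd6 and mt-Co1 lie far below the other 6.

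CRAC asks where HuD touches RNA, and cross-linked bases are read as deletions. Of 2868 unique windows listed, 10 lay on mitochondrial DNA and 5 on 4 of the 10 mRNAs: mt-Nd1, mt-Nd2, mt-Co3 and mt-Nd6. All 5 are within coding sequence. They are printed with 10 bases on each side, capitals marking the listed window sequence, as DNA, 5′ to 3′ on the gene's strand (GRCm38, coordinates of the capitals).
mt-Nd1 (chrM:2937-2943, plus): accaatacgcCCTTTAAcaacctctat
mt-Nd2, first (chrM:4785-4791, plus): ctaaacctatTCTTTTAtactcgccta
mt-Nd2, second (chrM:4801-4807, plus): atactcgcctAATTTATtccacttcac
mt-Co3 (chrM:9196-9202, plus): ggttctacatTCTTCATggctactgga
mt-Nd6 (chrM:13890-13896, minus): ttttttaattTATTTAGgggggatgtt

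The 2 windows of mt-Nd2 lie side by side, 160 and 144 bases before its 3′ end, and had the highest coverage of the 5, with 519 and 547 HuD reads and 6 and 7 reads with a deletion. The mt-Nd6 window had 140 reads and 5 deletions, that of mt-Nd1 89 and 6, and that of mt-Co3 19 and 3. Control coverage was 0 at all 5, as at 93.5% of all listed windows. The median over all windows was 28 reads and 5 deletions, so the windows of mt-Nd1, mt-Nd2 and mt-Nd6 had more reads than the median and that of mt-Co3 fewer. The mt-Co3 values are listed identically for the nuclear copy Gm28437, and the 2 cannot be told apart. The table pools the 3 replicates and was selected by the authors for HuD signal, so no spread and no test can be given, and it does not bear on mRNAs without a window. The 5 windows together held 0.0508% of the HuD coverage listed.

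The other 5 mitochondrial windows lie on mt-Rnr1, mt-Rnr2 and mt-Te, with control coverage of 1 to 34 reads. The highest, on mt-Te of the minus strand next to mt-Nd6, had 5489 HuD reads, 15 deletions and 34 control reads. The 4 mRNAs with a window had log2 fold changes of HuD against control in total RNA of 0.07 (mt-Nd1), 0.16 (mt-Nd2) and 2.06 (mt-Nd6, from 1 library), with mt-Co3 not analysed there, and at the 3′ end of -0.01, -0.14, 0.34 and 0.02 for mt-Nd1, mt-Nd2, mt-Nd6 and mt-Co3. None of these passed the test.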

How the data were processed

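Counts of reads per gene in total and polysomal RNA were made by the authors with STAR 2.5.3a on GRCm38.p4 with Gencode annotation and deposited without normalization. The kit was stranded, and the strand setting of the counting is not given in the sources used here. For the 3′ end, the authors deposited counts of reads at known polyadenylation sites. Sites repeated for several transcripts were used once and summed per gene. For CRAC the authors deposited, per window and pooled over replicates, the count of covering reads and another value, the reads with a deletion. Columns with their own p-values and motif scores were not used. The listed window sequence began 2 bases from the listed start in all 10 mitochondrial windows, and the matched positions are printed.

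Genes were fitted with edgeR 4.0.16 in R 4.3.3 (TMM factors, filterByExpr, quasi-likelihood test, a mean per group over 8 libraries, or over 6 at the 3′ end, Benjamini-Hochberg adjustment, threshold 0.05). Errors of log2 fold changes are standard errors of that fit. Gene spans, exon lengths and sequences came from GENCODE vM21 on GRCm38. In simulated counts the fit recovered 87% to 100% of genes changed by 1 on the log2 scale and called 0.0478% to 0.143% of unchanged ones, over the 5 comparisons of total and polysomal RNA. In those counts genes varied independently, with no deviation shared across a library, so recovery in the real libraries may be lower. The simulation does not show that an uncalled gene is unchanged. Same-numbered 3′ end libraries deviated together over all genes (r = 0.396, 0.651 and 0.510), so the numbers were taken to pair them, from the data and not from the labels. DESeq2 1.42.0, other scalings, no filter, a replicate block, fewer libraries and leaving out each library were alternatives, and the share of protein coding counts was added after the data were seen. Tables were made in Python 3.11.15 with pandas 2.3.3 and SciPy 1.17.1, and figures with matplotlib 3.10.9.

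The mRNAs and gene lists were chosen with earlier results of these data known. The rule for named genes took all 10 mRNAs, Elavl4, the 5 nearest profiles, every measured gene of a list of at most 5, and of each longer list the 2 most abundant genes and the 2 with the smallest p in each direction. Of these the text gives values only for genes that a result turns on. Rpph1, Rn7sk, Terc and the other RNAs without a poly(A) tail were chosen after their values were seen.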

Additional observations from a re-analysis of the deposited data

How the results depend on the processing

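The counts of called mRNAs in polysomal against total RNA moved with the test and the libraries. In control cells DESeq2 called 3 and the unadjusted threshold 4, and leaving out 1 library gave 0 to 6. In HuD cells DESeq2 called 4, the unadjusted threshold 6 and the fit of only the 4 libraries 5, and leaving out 1 library gave 0 to 5. With the replicate block, 3 were called in HuD cells (mt-Nd2, mt-Nd4 and mt-Cytb, beside 2.79% of all genes) and 0 in control cells. There are only 2 numbers in total and polysomal RNA. Same-numbered libraries correlated at 0.177 to 0.368, and the labels name no pairing, so whether they pair could not be settled. The block changed no other call. In total RNA of HuD against control cells the unadjusted threshold gave 1. DESeq2 size factors, TMM without mitochondrial genes, library totals and no filter called 0 in every comparison they were run for. With library totals mt-Cytb gave 0.0054 in total RNA of HuD against control cells, in place of -0.02. The cause of these moves was not tested. Where leaving out a library left 1 sample in a group, that sample was assumed to vary like the other groups.

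Leaving out 1 library turned the direction of some differences. That of mt-Nd6 in polysomal against total RNA of HuD cells ranged from -3.06 to -0.046, and its ratio difference from -3.39 to -0.37. For polysomal against total RNA in control cells mt-Nd6 ranged from -0.55 to 1.01. For HuD against control in total RNA the ranges were -0.16 to 0.27 for mt-Nd1, -0.014 to 0.31 for mt-Nd2, -0.20 to 0.060 for mt-Nd4, -0.12 to 2.89 for mt-Nd6 and -0.14 to 0.10 for mt-Cytb. In polysomal RNA they were -0.0093 to 0.38 for mt-Nd1, -0.38 to 0.021 for mt-Nd5, -1.01 to 0.39 for mt-Nd6, -0.66 to 0.056 for mt-Cytb and -0.76 to 0.22 for mt-Co1. For the polysomal to total ratio they were -0.10 to 0.33 for mt-Nd1, -0.17 to 0.16 for mt-Nd2, -0.57 to 0.067 for mt-Nd4, -0.21 to 0.19 for mt-Nd5, -0.64 to 0.072 for mt-Cytb and -0.65 to 0.34 for mt-Co1. At the 3′ end they were -0.095 to 0.033 for mt-Nd1, -0.29 to 0.026 for mt-Nd2, -0.36 to 0.038 for mt-Co1, -0.054 to 0.083 for mt-Co3 and -0.17 to 0.17 for mt-Atp6. These 3′ end fits had no replicate block, so each left a library without its same-numbered partner. Within the pairs mt-Nd2 was lower and mt-Co3 higher in HuD cells in all 3.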
